A study of Mus musculus with 4 samples.

Results

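Interleukins and their receptors were examined in the perivascular adipose tissue (PVAT) around the femoral artery (FA) of the mouse after endovascular wire injury. The genes were every row of the deposited expression table whose symbol begins with Il followed by a digit. This rule took 37 of 12661 genes, made up of 10 ligands, 23 receptor chains, 3 antagonists and 1 gene of another kind, *Il4i1*, which encodes a secreted amino acid oxidase. All libraries came from 11-week-old wild type C57BL/6 females that had been ovariectomized, so ovariectomy was common to both groups. In the injury group a straight spring wire of 0.38 mm diameter was inserted into the FA, and the sham group had a sham operation. The outer tissue was taken 48 h later and 480 ng of total RNA entered each stranded mRNA library, with 2 libraries per group. Nothing in the labels says whether the libraries of a group came from separate mice, so the p-values measure the spread between these libraries, which may be technical.

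The table held signed, log-like values, called deposited units here, that are centred gene by gene around an unstated reference. A value compares libraries within one gene and gives no level that can be compared between genes, and since the base of the logarithm is not given, differences are not turned into fold changes. Depth is unknown for all 4 libraries. A gene was called where limma gave an adjusted p under 0.05, with Benjamini-Hochberg adjustment over all 12661 genes. An exact permutation test of 2 libraries against 2 cannot give a two-sided p below 0.333. The tissue was bulk, and fewer cells of a type and less RNA per cell cannot be told apart in it. Of the adipocyte marker list all 6 genes were in the table, which gives no measure of how much adipose tissue a library held.

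Interleukins are secreted proteins through which leukocytes and tissue cells signal to each other. Those of the IL-1 family bind a receptor chain that recruits an accessory chain and signals through the adaptor MyD88, and their action is limited by a receptor antagonist, by decoy receptors and by soluble binding proteins. Most other interleukins signal through receptors bound to Janus kinases and STAT factors, and share chains: the common gamma chain serves IL-2, IL-4, IL-7, IL-15 and IL-21, and gp130 serves IL-6, IL-11 and IL-27. In adipose tissue, IL-1 cytokines come largely from myeloid cells, whereas IL-33 is made by stromal and endothelial cells and is known for sustaining innate lymphoid and regulatory T cells.

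In injured PVAT, the IL-1 receptor antagonist gene *Il1rn* and the receptor chains *Il7r*, *Il21r*, *Il10ra* and *Il2rb* rose, while the cytokine gene *Il33* and the shared receptor chain *Il6st* fell. These 7 genes made up 18.9% of the 37, and 7.43% of all genes in the table were called. The 5 called higher compare with a background of 3.76% of all genes and the 2 called lower with one of 3.67%. In 20 of the 37 genes both injury libraries lay above both sham libraries, against 31.6% of all genes, and in 7 both lay below, against 30.3%. In the other 10 the groups overlapped, so 73.0% of the interleukin genes and 61.9% of all genes did not overlap. The mean was higher after injury for 28 of the 37 and lower for 9. The median difference, injury minus sham, was 0.48 deposited units over the 37 genes and 0.01 over all genes.

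By role, 1 of 10 ligands was called and it was lower, 5 of 23 receptor chains were called with 4 higher and 1 lower, and 1 of 3 antagonists was called higher. Of all genes 7.43% were called, 3.76% higher and 3.67% lower, so the ligand share of 10.0% lay near the background. The median difference was 0.51 for ligands, 0.40 for receptor chains and 1.29 for antagonists. Each of these medians depended on 1 library: the ligand median was 0.33 without sham replicate 2, the receptor median 0.23 without sham replicate 1 and the antagonist median 0.73 without injury replicate 1. Without sham replicate 1 or without sham replicate 2 limma called none of the 37, although 16 and 17 of them had an unadjusted p under 0.05. Without injury replicate 1, 2 were called, *Il10ra* and *Il2rb*, and without injury replicate 2, 15 were called, among them all 7. In these fits the lone library of a group is assumed to vary like the others. The calls over all genes moved in the same direction, as given in the closing section, so these counts are not particular to the interleukin genes.

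**Figure D1:**
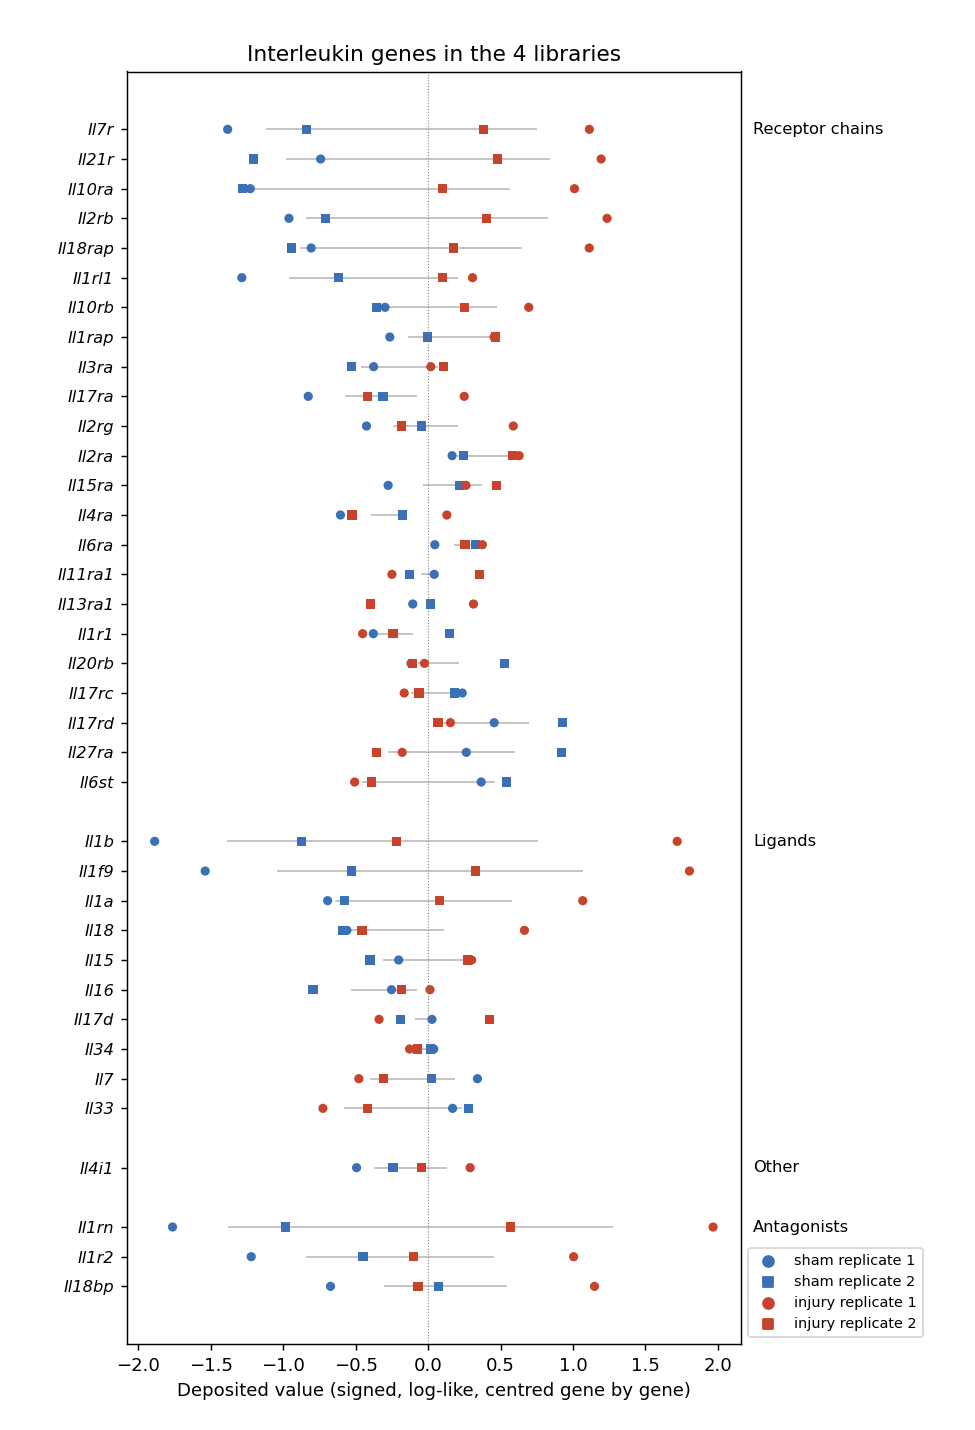
Deposited values (signed, log-like, centred gene by gene; horizontal axis) of the 37 interleukin genes in the 4 libraries, with blue for sham, red for injury, circles for replicate 1 and squares for replicate 2, and a grey line joining the 2 group means. In 20 genes both red symbols lie to the right of both blue symbols, in 7 they lie to the left, and in the upper rows of each block the red circle lies far to the right of the red square.

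Of the promoter windows of the called genes and the IL-1 cytokines, those that held a searched motif are shown, since the account below turns on these genes. The sequences are the 250 bases before a start site in RefSeq (GRCm38.p6), which held 38 such windows for 29 of the 37 genes. They were searched on both strands for TGANTCA, a core recognised by AP-1, for TTCNNNGAA, recognised by STAT factors, for TTGCNNAA, recognised by C/EBP factors, and for the kappaB consensus. Capitals mark the matches, none of which overlaps another in the windows shown, and each window is given 5' to 3' on the strand of its gene.

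Il1rn promoter, chr2:24336610-24336859, plus strand: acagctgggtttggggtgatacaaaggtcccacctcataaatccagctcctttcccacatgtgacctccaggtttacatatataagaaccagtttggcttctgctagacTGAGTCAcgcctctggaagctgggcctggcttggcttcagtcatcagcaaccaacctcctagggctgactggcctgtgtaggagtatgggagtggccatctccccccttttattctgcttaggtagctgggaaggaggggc
Il1f9 promoter, chr2:24186226-24186475, plus strand: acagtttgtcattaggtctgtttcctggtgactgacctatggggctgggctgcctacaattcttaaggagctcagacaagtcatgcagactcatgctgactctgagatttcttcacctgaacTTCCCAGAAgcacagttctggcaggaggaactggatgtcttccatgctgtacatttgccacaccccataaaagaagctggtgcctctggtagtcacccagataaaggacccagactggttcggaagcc
Il1a promoter, chr2:129309973-129310222, minus strand: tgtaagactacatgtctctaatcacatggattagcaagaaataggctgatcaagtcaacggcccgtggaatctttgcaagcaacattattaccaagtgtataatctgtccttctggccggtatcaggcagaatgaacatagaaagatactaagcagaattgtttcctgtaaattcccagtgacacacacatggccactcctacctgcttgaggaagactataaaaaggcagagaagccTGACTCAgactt
Il7r promoter, chr15:9529877-9530126, minus strand: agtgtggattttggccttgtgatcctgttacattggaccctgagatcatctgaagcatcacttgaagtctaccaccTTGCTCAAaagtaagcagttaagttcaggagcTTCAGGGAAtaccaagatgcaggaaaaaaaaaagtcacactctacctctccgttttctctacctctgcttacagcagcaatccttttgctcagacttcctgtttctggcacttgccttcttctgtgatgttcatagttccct
Il33 promoter, chr19:29945540-29945789, plus strand: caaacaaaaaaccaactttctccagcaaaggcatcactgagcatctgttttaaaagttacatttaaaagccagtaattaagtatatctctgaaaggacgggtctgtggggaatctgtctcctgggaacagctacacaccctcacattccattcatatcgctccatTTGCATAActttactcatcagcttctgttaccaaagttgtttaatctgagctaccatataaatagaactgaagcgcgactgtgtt

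The *Il1rn* window shown, 1 of 3 for this gene, held the AP-1 letters at positions -141 to -135 from the start site, and the *Il1a* window held them at -12 to -6. In the *Il1f9* window the STAT letters lay at -128 to -120. The *Il7r* window held C/EBP letters at -174 to -167 and STAT letters at -142 to -134. The *Il33* window shown, 1 of 2 for this gene, held C/EBP letters at -85 to -78. No match was found in the windows of *Il21r*, *Il6st*, *Il1b* and *Il18*, and *Il10ra* and *Il2rb* had no entry. Matches were common in promoters at large: the AP-1 letters occurred in 6.75% of all 32851 windows and in 10.5% of the interleukin windows, the STAT letters in 7.02% and 7.89%, the C/EBP letters in 9.56% and 21.1%, and the kappaB consensus in 7.25% and 7.89%. These matches are a description of the letters and do not show binding.

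Among the antagonists, *Il1rn* rose and had the fifth highest difference of all 12661 genes. It encodes the protein that occupies the IL-1 receptor without signalling, and lies on chromosome 2 (chr2:24192373-24207014, plus strand, NCBIM37). Its values were -1.76 and -0.99 in the sham libraries and 1.97 and 0.57 in the injury libraries. Both injury libraries stood well above both sham libraries, with injury replicate 1 the higher of the pair. The difference was 2.64 ± 0.50 deposited units (SE, n = 2 per group; limma, adjusted p = 0.0435). Over 5 alternatives that kept the 4 libraries its adjusted p from limma ran from 0.0281 to 0.0548.

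*Il1r2*, the decoy receptor that binds IL-1 without signalling, had values of -1.22 and -0.45 after sham and 1.0 and -0.10 after injury. The groups did not overlap, but injury replicate 2 lay 0.35 units above the nearer sham library, and the difference of 1.29 ± 0.43 did not pass the test (limma, adjusted p = 0.122) and was 0.73 with injury replicate 1 left out. *Il18bp*, whose product binds IL-18 in solution, had values of -0.67 and 0.07 after sham and 1.15 and -0.07 after injury. Here injury replicate 2 fell between the sham libraries, so the groups overlapped, and the difference was 0.84 ± 0.45 (limma, adjusted p = 0.279), or 0.23 with injury replicate 1 left out. For each of the 3 antagonists sham replicate 1 was the lowest library and injury replicate 1 the highest.

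Of the 10 ligands, the IL-1 family members *Il1b*, *Il1f9*, *Il1a* and *Il18* had the highest differences, and none of these 4 passed the test. *Il1b* encodes IL-1 beta, which is cut to its active form by the inflammasome. The gene stood at -1.89 and -0.88 after sham and at 1.72 and -0.22 after injury, giving a 95% interval of the difference from 0.45 to 3.82 (limma, adjusted p = 0.1102). The gap between the injury libraries was 1.94 units, and the difference ran from 1.16 without injury replicate 1 to 3.10 without injury replicate 2. *Il1f9*, which encodes IL-36 gamma, an agonist of epithelia and myeloid cells, had values of -1.54 and -0.53 after sham and 1.80 and 0.33 after injury. Its difference was 2.10 ± 0.56 (limma, adjusted p = 0.0782), and 1.36 without injury replicate 1.

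*Il1a* encodes IL-1 alpha, which is active as it is made and is released from damaged cells. Its values were -0.69 and -0.57 after sham and 1.07 and 0.08 after injury, a difference of 1.20 ± 0.33 (limma, adjusted p = 0.0825) that was 0.71 with injury replicate 1 left out. *Il18* encodes a further substrate of the inflammasome. Only injury replicate 1 stood high, with values of -0.56 and -0.59 after sham and 0.67 and -0.46 after injury, and its difference of 0.68 ± 0.36 did not pass the test (limma, adjusted p = 0.278) and was 0.12 with that library left out. In each of these 4 ligands injury replicate 1 lay above injury replicate 2 by 0.99 units or more.

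*Il33* went the other way and was the only ligand called. It lies on chromosome 19 (chr19:29999604-30035194, plus strand, NCBIM37) and encodes the alarmin IL-33, which is held in the nucleus and released when cells are damaged. Its values were 0.17 and 0.28 in the sham libraries and -0.72 and -0.42 in the injury libraries. Both injury libraries lay below both sham libraries, with injury replicate 1 the lower by 0.31 units. The difference was -0.80 ± 0.16 (limma, adjusted p = 0.0498). With a robust variance prior it no longer passed (adjusted p = 0.0514), and over the 5 alternatives that kept the 4 libraries the adjusted p ran from 0.0369 to 0.0598. Of 5 endothelial markers 2 were called lower, against 3.67% of all genes, and none higher, with a median difference of -0.73. In *Kdr* the groups overlapped. The summed values of the 5 were 3.91 and 4.0 after sham and -0.96 and -0.79 after injury. Lower values were not particular to this list. The 4 skeletal muscle markers analysed had a median difference of -0.75 (-0.31 without sham replicate 1), and of 6 adipocyte markers 1 was called lower and none higher. The part of these markers in the *Il33* difference was not tested.

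On the receptor side of the family, the ST2 chain *Il1rl1*, which is the receptor of IL-33, lay higher while its ligand fell. *Il1rl1* had values of -1.28 and -0.61 after sham and 0.31 and 0.10 after injury, with no overlap. Its difference of 1.15 ± 0.25 missed the threshold (limma, adjusted p = 0.0540) and passed it after quantile normalization (adjusted p = 0.0398), in a range from 0.0373 to 0.0670 over the 5 alternatives that kept the 4 libraries. *Il18rap*, the accessory chain of the IL-18 receptor, had values of -0.81 and -0.94 after sham and 1.11 and 0.17 after injury. Its difference was 1.52 ± 0.31, just short of the threshold (limma, adjusted p = 0.0501), and in the same alternatives the adjusted p ran from 0.0412 to 0.0539.

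The accessory chain *Il1rap*, shared by the receptors of IL-1, IL-33 and IL-36, had close values in the 2 injury libraries. They were 0.46 and 0.47, against -0.26 and -0.005 after sham, a difference of 0.60 ± 0.15 that did not pass (limma, adjusted p = 0.0727). The signalling receptor *Il1r1* overlapped between the groups, with -0.38 and 0.15 after sham and -0.45 and -0.24 after injury. Its 95% interval ran from -0.77 to 0.31, while that of *Il1rn* ran from 1.39 to 3.89. Over the 12 genes of the IL-1 family 1 was called higher and 1 lower, against 3.76% and 3.67% of all genes.

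The receptor chains with the highest differences were *Il7r*, *Il21r*, *Il10ra* and *Il2rb*, and all 4 rose. In each of them the sham libraries lay below the gene's reference and the injury libraries above it. Centring gene by gene makes this likely for a wide difference, so it adds nothing to the calls. 3 of the 4 belong to the common gamma chain family, of whose 10 genes these 3 were called, against 3.76% of all genes called higher. *Il7r* encodes the chain for IL-7 and thymic stromal lymphopoietin, on which lymphocyte survival depends (chr15:9435916-9459631, minus strand, NCBIM37). Its values were -1.38 and -0.84 after sham and 1.11 and 0.38 after injury, and the difference was 1.86 ± 0.30 (limma, adjusted p = 0.0330).

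*Il21r* encodes the chain that binds IL-21, a product of helper T cells (chr7:132746943-132777084, plus strand, NCBIM37). It had -0.74 and -1.20 after sham and 1.19 and 0.48 after injury, a difference of 1.81 ± 0.29 (limma, adjusted p = 0.0323). *Il2rb* encodes the beta chain shared by the receptors of IL-2 and IL-15 (chr15:78310983-78325496, minus strand, NCBIM37). Its values were -0.96 and -0.71 after sham and 1.23 and 0.41 after injury, giving 1.65 ± 0.29 (limma, adjusted p = 0.0378). Injury replicate 1 was the higher injury library in all 3, by 0.71 to 0.83 units.

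The common gamma chain itself, *Il2rg*, with which these chains pair, overlapped between the groups. Its values were -0.42 and -0.05 after sham and 0.59 and -0.18 after injury, a difference of 0.44 ± 0.29 (limma, adjusted p = 0.372) that ran from 0.05 (injury replicate 1 left out) to 0.82 (injury replicate 2 left out). In the annotation 728 of its 2387 exon bases also belong to *Gm20489* on the same strand, so its counts are uncertain. The alpha chains *Il2ra* and *Il15ra* were not called, each with a difference of 0.40. *Il2ra*, the high-affinity chain for IL-2, had 0.17 and 0.24 after sham and 0.63 and 0.58 after injury. Its groups did not overlap (limma, adjusted p = 0.122). *Il15ra*, which presents IL-15 to neighbouring cells, had -0.28 and 0.22 after sham and 0.26 and 0.47 after injury. For *Il15ra* injury replicate 1 lay only 0.05 units above the higher sham library, and limma gave an adjusted p of 0.268.

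*Il4ra*, the chain for IL-4 and IL-13, also overlapped, with -0.60 and -0.18 after sham and 0.13 and -0.52 after injury. Its partner for IL-13, *Il13ra1*, had the smallest difference of the 37 genes. The values were -0.11 and 0.02 after sham and 0.31 and -0.40 after injury, with a 95% interval of the difference from -0.64 to 0.64.

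Of the ligands of this family 2 were in the table, and their differences had opposite signs. *Il15*, which supports natural killer and memory T cells, had -0.20 and -0.40 after sham and 0.30 and 0.27 after injury. Its injury libraries agreed to within 0.03 units, and the difference of 0.59 ± 0.14 did not pass the test (limma, adjusted p = 0.0670). *Il7*, the ligand of *Il7r*, had 0.34 and 0.02 after sham and -0.48 and -0.31 after injury, with no overlap. The difference of -0.57 ± 0.17 was in the opposite direction to that of its receptor and did not pass (limma, adjusted p = 0.0970). *Il2*, *Il4* and *Il21* were not analysed here.

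*Il10ra*, the ligand-binding chain of the receptor for the anti-inflammatory cytokine IL-10, rose (chr9:45061922-45077232, minus strand, NCBIM37). Its values were -1.23 and -1.28 after sham and 1.01 and 0.10 after injury, so the sham libraries were nearly equal and the injury libraries lay 0.91 units apart. The difference was 1.81 ± 0.30 (limma, adjusted p = 0.0345). The second chain of the same receptor, *Il10rb*, had -0.30 and -0.35 after sham and 0.69 and 0.25 after injury. It lay higher without overlap but did not pass, with a difference of 0.80 ± 0.19 (limma, adjusted p = 0.0628), and 569 of its 3803 exon bases are shared with the interferon receptor gene *Ifnar2* on the same strand. *Il20rb*, a chain for IL-19, IL-20 and IL-24, overlapped between the groups, and sham replicate 2 stood apart at 0.53 while the other 3 libraries lay between -0.12 and -0.02. *Il10* itself was not analysed here.

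*Il6st*, which encodes gp130, fell and had the lowest difference of the 37 genes (chr13:113265216-113297068, plus strand, NCBIM37). Its values were 0.37 and 0.54 after sham and -0.51 and -0.39 after injury. Libraries of a group were close together, 0.18 units apart after sham and 0.12 after injury. The difference was -0.90 ± 0.15 (limma, adjusted p = 0.0327). Of the endothelial markers given above 2 of 5 were called lower too, and their part in this difference was not tested. *Il27ra*, which pairs with gp130 to bind IL-27, was lower without overlap but did not pass the test. It had 0.26 and 0.92 after sham and -0.18 and -0.35 after injury, a difference of -0.86 ± 0.24 (limma, adjusted p = 0.0894) that was -0.53 without sham replicate 2.

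The chains that bind the ligands of gp130 were not called. *Il6ra*, for IL-6, had 0.05 and 0.33 after sham and 0.37 and 0.26 after injury, which overlap, and the interval of its difference ran from -0.27 to 0.53. *Il11ra1*, for IL-11, had 0.04 and -0.13 after sham and -0.25 and 0.35 after injury, with injury replicate 2 the highest library and injury replicate 1 the lowest. The mouse genome holds near-identical copies of this gene, so its counts are uncertain. *Il6* was not analysed here.

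No gene of the IL-17 family was called, and limma gave an unadjusted p under 0.05 for 1 of the 4, against 7.43% and 29.5% of all genes. That gene was *Il17rd*, a chain known for restraining growth factor signals, with 0.46 and 0.93 after sham and 0.15 and 0.07 after injury and a difference of -0.58 ± 0.19 (limma, adjusted p = 0.123) that was -0.34 without sham replicate 2. *Il17rc*, which forms the IL-17A receptor with *Il17ra*, had 0.24 and 0.18 after sham and -0.16 and -0.06 after injury. *Il17ra* overlapped between the groups, with -0.83 and -0.31 after sham and 0.25 and -0.42 after injury. The ligand *Il17d* overlapped as well, its injury libraries being the lowest and the highest of the 4, with 0.03 and -0.19 after sham and -0.34 and 0.43 after injury.

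Of the remaining ligands, *Il34*, which activates the macrophage receptor CSF1R, had 0.04 and 0.02 after sham and -0.13 and -0.07 after injury. The groups did not overlap, but the difference was small, -0.13 ± 0.13 (limma, adjusted p = 0.564). *Il16*, a ligand of CD4, had -0.25 and -0.79 after sham and 0.01 and -0.18 after injury, and 1202 of its 7842 exon bases lie opposite exons of *Stard5*. The library kit marks strand, but whether the counting used it is not given in the sources used here. *Il3ra*, the alpha chain of the IL-3 receptor, and the enzyme gene *Il4i1* lay higher without overlap, with differences of 0.52 and 0.49, and did not pass (limma, adjusted p = 0.0829 and 0.150), and that of *Il4i1* was 0.32 without injury replicate 1.

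**Figure D2:**
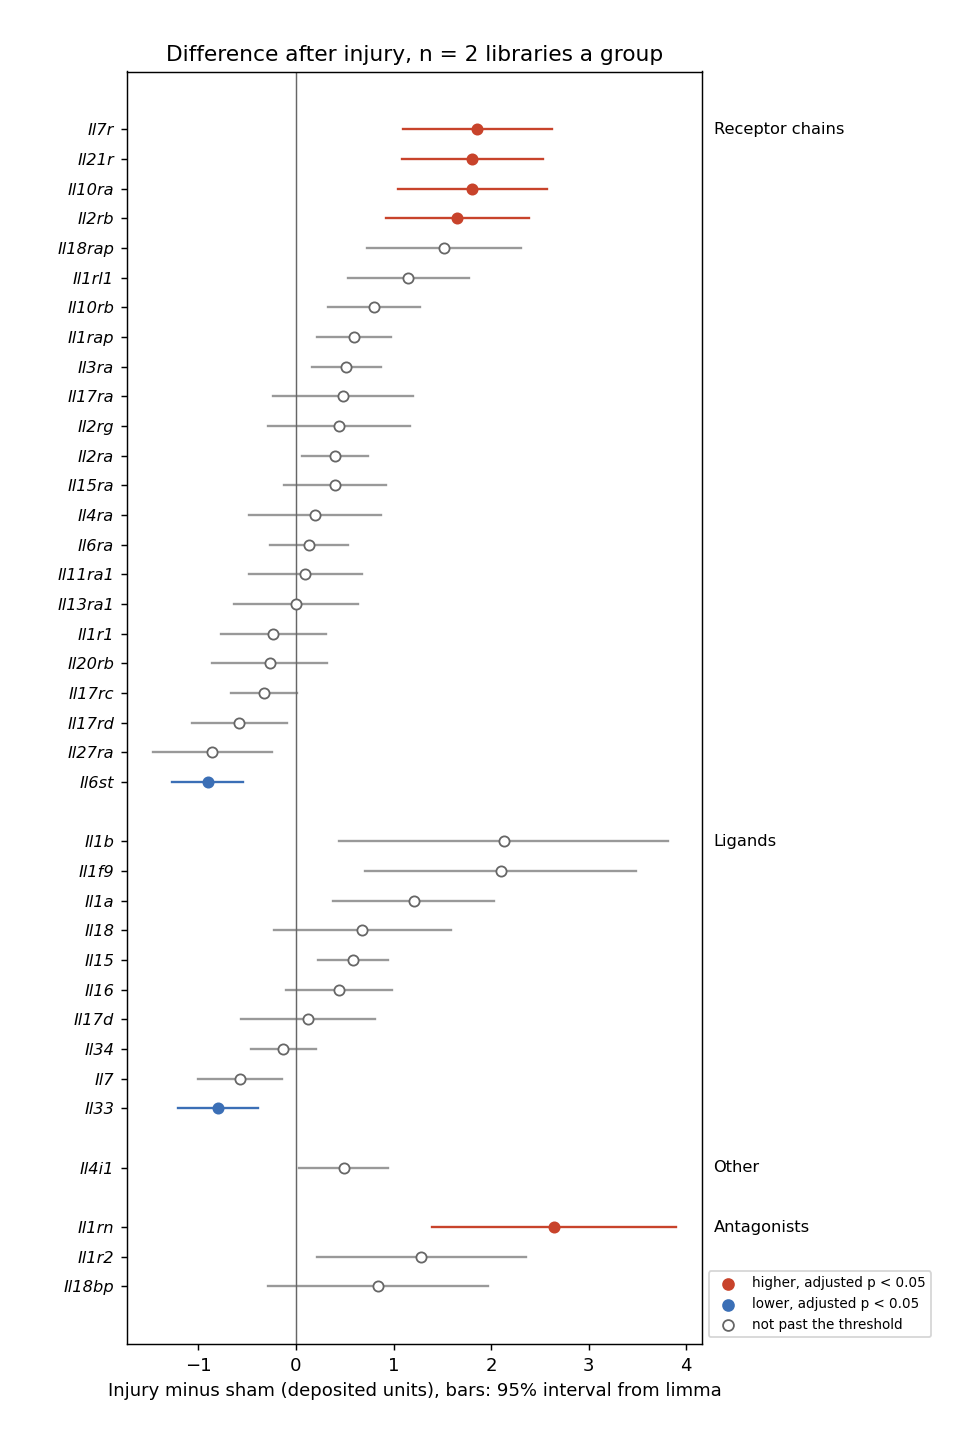
Difference between the group means, injury minus sham, in deposited units (horizontal axis) for the 37 interleukin genes by role, with bars for the 95% interval from limma (n = 2 libraries per group), filled red for genes called higher, filled blue for genes called lower and open for the rest. The 4 receptor chains called higher lie between 1.65 and 1.86, *Il1rn* lies at 2.64, and the intervals of *Il1b* and *Il1f9* are the widest among the ligands.

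Ligands and receptors can be set side by side where both were in the table. For IL-33 the ligand fell and the difference of its receptor *Il1rl1* was positive without passing the test. For IL-7 the receptor *Il7r* rose and the difference of the ligand was negative without passing the test. For IL-15 the ligand and its chains *Il2rb*, *Il15ra* and *Il2rg* all had positive differences, of which that of *Il2rb* was called. For IL-1 the agonists, the antagonist and the decoy had positive differences of 1.20 to 2.64, and that of the signalling receptor was -0.23 with overlapping groups. For IL-18 the ligand, the binding protein and the accessory chain had differences of 0.68, 0.84 and 1.52, which without injury replicate 1 were 0.12, 0.23 and 1.05. No test was made of one gene's difference against another's.

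Several of these genes lie close together, other genes of the annotation not being considered. On chromosome 1 *Il1r2*, *Il1r1*, *Il1rl1* and *Il18rap* come in this order with distances of 99.9 kb, 113 kb and 49.9 kb (NCBIM37), and their differences in that order were 1.29, -0.23, 1.15 and 1.52. The negative value of *Il1r1* belongs to groups that overlap, and it turned to 0.03 without sham replicate 2, while *Il1r2* was at 0.73 without injury replicate 1. On chromosome 2 *Il1a* and *Il1b* lie 54.6 kb apart, and *Il1f9* and *Il1rn* 143 kb apart, and the 4 had differences of 1.20 or more, which ran from 0.71 (*Il1a*) to 1.94 (*Il1rn*) without injury replicate 1. *Il2ra* and *Il15ra*, 12.1 kb apart, had differences of 0.40 and 0.40, which were 0.36 and 0.15 without sham replicate 1. On chromosome 7 *Il4ra* and *Il21r* lie 24.0 kb apart, and only *Il21r* was called.

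Genes that work with interleukins but carry other symbols were taken as 5 lists. In the list of shared receptor chains and related cytokines 2 of 11 were called, both higher, against 3.76% of all genes called higher. *Ebi3*, a subunit of IL-27 and IL-35, had -0.87 and -1.50 after sham and 0.80 and 0.05 after injury, a difference of 1.61 ± 0.33 (limma, adjusted p = 0.0481). *Csf1r*, the receptor of IL-34 and of the macrophage growth factor CSF1, had -1.20 and -1.31 after sham and 0.36 and -0.22 after injury, a difference of 1.33 ± 0.22 (limma, adjusted p = 0.0344). The median over the 11 was 0.14, but 0.09 without sham replicate 2 and 0.44 without sham replicate 1 or injury replicate 2. *Csf1r* thus rose while its ligand *Il34* had a difference of -0.13, and *Ebi3* rose while the IL-27 receptor chain *Il27ra* had one of -0.86, both short of the threshold.

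In the list for maturation and release of IL-1, 2 of 7 genes were called and both rose, against the same 3.76% of all genes. They were *Nlrp3*, the inflammasome sensor, and *Pycard*, the adaptor that joins it to caspase-1. *Nlrp3* had -1.77 and -1.14 after sham and 1.5 and 0.27 after injury, a difference of 2.34 ± 0.44 (limma, adjusted p = 0.0422). *Pycard* had -0.76 and -1.04 after sham and 0.26 and -0.04 after injury, a difference of 1.01 ± 0.18 (limma, adjusted p = 0.0386). The median over the 7 was 0.51, the DNA sensor gene *Aim2* had a difference of 1.16 and the caspase gene *Casp1*, whose groups overlapped, one of 0.51 (limma, adjusted p = 0.0711 and 0.309). With injury replicate 1 left out these 3 values were 0.24, 0.76 and 0.09.

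The signalling lists held no called gene in limma. Of 11 adaptors of the IL-1 and Toll-like receptors none was called and 2 had an unadjusted p under 0.05, with a median difference of 0.10 (0.01 to 0.21 when leaving out each library in turn, the ends set by injury replicates 1 and 2). Of 11 Janus kinase and STAT genes none was called and 1 had an unadjusted p under 0.05, with a median of -0.03 (-0.11 without sham replicate 1 to 0.08 without injury replicate 2). Of 8 feedback inhibitors, which include the SOCS proteins, none was called and 1 had an unadjusted p under 0.05, with a median of 0.22 (-0.11 without injury replicate 1 to 0.64 without injury replicate 2). The sign of the last 2 medians thus turned with 1 library. These shares stand beside 29.5% of all genes with an unadjusted p under 0.05. Over all pathway and marker lists 12 genes were called, none without sham replicate 1 or sham replicate 2, 5 without injury replicate 1 and 32 without injury replicate 2.

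The 2 injury libraries differed from each other in these genes. Injury replicate 1 lay above injury replicate 2 in 26 of the 37, and in 48.9% of all genes. Among the 28 genes with a higher mean after injury this was so for 23, with a median gap of 0.69 units. Among the 9 with a lower mean it was so for 3. Injury replicate 1 enters both the mean and the gap, so the split itself partly fixes these counts. The gap exceeded 0.5 units in the direction of injury replicate 1 in 16 of the 37 genes, against 7.32% of all genes. It was widest in *Il1b* at 1.94, *Il1f9* at 1.48 and *Il1rn* at 1.40, and had a median of 1.05 over the IL-1 family.

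Myeloid markers moved with both the injury and this gap. All 7 macrophage markers and all 7 neutrophil markers lay higher in both injury libraries, as did 31.6% of all genes, and 3 and 2 of them were called higher, against 3.76% of all genes. The summed values of the macrophage markers were -8.16 and -6.99 after sham, 4.28 in injury replicate 1 and -0.84 in injury replicate 2. The summed values of the neutrophil markers were -8.75 and -6.34 after sham, 8.81 in injury replicate 1 and 0.83 in injury replicate 2. The median gap between the injury libraries was 0.83 for macrophage and 1.38 for neutrophil markers. The part of these markers in the differences of *Il1rn*, the IL-1 ligands and the called receptor chains was not tested.

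Lymphocyte markers gave less to compare. Of 6 T cell markers 3 were analysed here, and none was called by limma or had an unadjusted p under 0.05. Their summed values were -0.38 and -0.24 after sham and 0.49 and -0.47 after injury. *Cd247*, *Lck* and *Thy1* had differences of -0.07, 0.59 and -0.20. Only *Lck* lay higher in both injury libraries, and its difference was 0.16 without injury replicate 1. *Cd3d*, *Cd3e* and *Cd3g* were not analysed here, so these values give no measure of T cell content. Of 4 B cell markers 1 was analysed, and it was not called. These values stand beside the rise of *Il7r*, *Il21r* and *Il2rb*, whose products are best known from lymphocytes. Of 5 mast cell markers none was called by limma or had an unadjusted p under 0.05, and their summed values were 2.94 and -0.63 after sham and -0.82 and 2.76 after injury. Of 6 adipocyte markers 1 was called lower, against 3.67% of all genes. Their median difference was -0.09 (-0.34 without injury replicate 2 to -0.02 without injury replicate 1). Of 5 skeletal muscle markers 4 were analysed, of which limma called none and 2 had an unadjusted p under 0.05, against 29.5% of all genes. All 4 had a lower mean after injury, with a median difference of -0.75 (-0.31 without sham replicate 1, -1.27 without sham replicate 2), and their summed values were 3.56 and -0.16 after sham and -1.30 and -1.72 after injury, so that sham replicate 1 stood apart. Of 8 epithelial markers 1 was analysed, *Cdh1*, with an unadjusted p above 0.05 in limma. Its values were 2.23 and 0.26 after sham and 0.24 and -0.83 after injury, so that sham replicate 1 stood apart here too. The difference of -1.54 was -0.56 without that library.

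**Figure D3:**
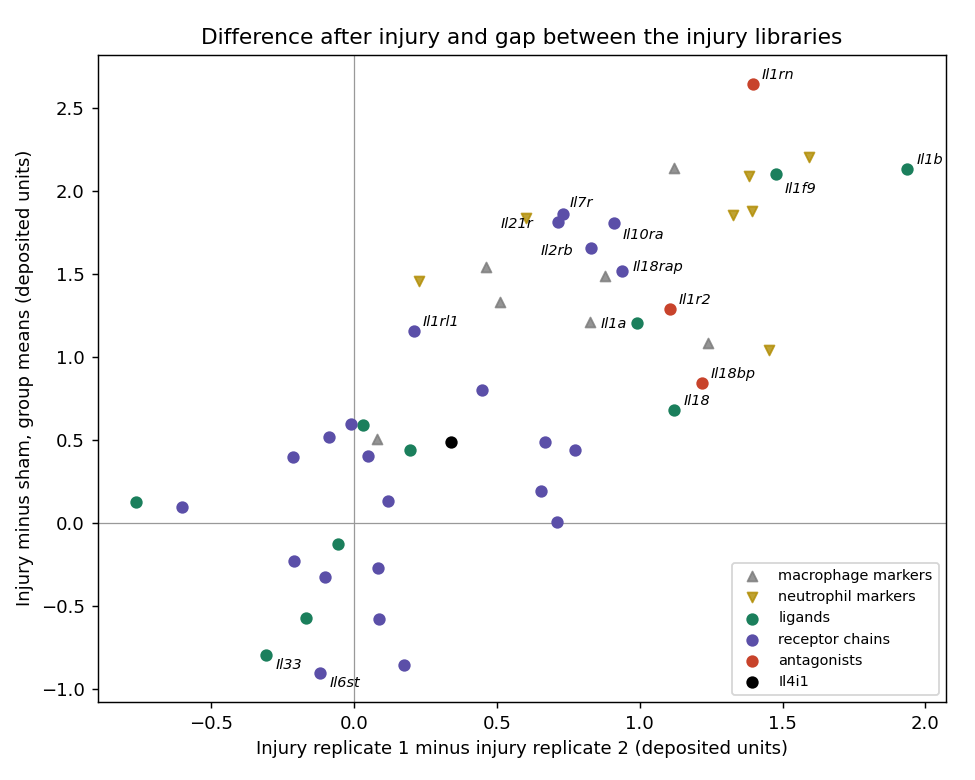
Difference between the group means, injury minus sham (vertical axis, deposited units), against the gap between the injury libraries, replicate 1 minus replicate 2 (horizontal axis, deposited units), for the 37 interleukin genes coloured by role and for 7 macrophage markers (grey triangles) and 7 neutrophil markers (yellow triangles). *Il1rn*, *Il1f9* and *Il1b* lie in the upper right, where most of the neutrophil markers also lie, and *Il33* and *Il6st* lie in the lower left, with gaps of -0.31 and -0.12. Points share the same 4 libraries, and both axes use injury replicate 1 and 2.

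The called genes can be set beside their gaps between the injury libraries. A smaller difference passes the test only with closer libraries, so no contrast between these gaps is drawn. For *Il6st* and *Il33* the gap between the injury libraries was 0.12 and 0.31 units, against differences of -0.90 and -0.80. For the 4 called receptor chains the gap was 0.71 to 0.91 units against differences of 1.65 to 1.86. Of all 37 genes, 2 had an adjusted p from 0.04 to under 0.05, *Il1rn* and *Il33*, and 2 from 0.05 to under 0.06, *Il18rap* and *Il1rl1*. In all, 10 lay from 0.05 to under 0.1 and 20 at 0.1 or more.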

How the data were processed

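Total RNA of outer tissue around the FA (2 sham and 2 injury libraries) had been sequenced. According to the study's methods and processing notes, the authors used FastQC 0.11.8, Cutadapt 1.18, Trimmomatic 0.39, STAR 2.6.0a on mm9, featureCounts and DESeq2 1.28.0 in R 3.6.0. The deposited values are scores, signed and log-like, centred per gene and running from -2.27 to 6.45. The step from counts to these values, their base and the depth are not given in the sources used here, so no precision from counting can be stated. Groups came from the sample titles.

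limma 3.58.1 (R 4.3.3) was fitted to all 12661 genes with group as the only term, in place of a count test, with Benjamini-Hochberg adjustment and a threshold of 0.05. The fit was tried on simulated data in 20 runs of 12661 genes, with 2 libraries in each group. Simulated shifts of 2 units were detected in 99.5% of cases, and smaller shifts of 1 unit in 82.1%. On average 17.1 genes without any simulated shift were also called in a run. The share of false calls in the deposited values was not measured. The alternatives were a replicate block, each library left out, quantile normalization, columns scaled to one SD, a robust variance prior, identical values counted once, an adjusted p under 0.1 and a minimum difference of 1 unit. No low-value filter could be set on centred values.

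The interleukin genes and the lists of pathway partners and cell type markers were chosen with earlier results of these data known. Values were given for every called interleukin gene, the 3 highest and 3 lowest differences per role and genes sharing a complex or ligand with these, and the remaining genes were added so that all 37 are accounted for. Of pathway lists, called genes and at most 4 others in alphabetical order were named. Positions are from GENCODE M1 (NCBIM37, the same assembly as mm9), in which all 37 symbols matched, and exon overlaps from the same annotation. Protein sequences were not used here.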

Additional observations from a re-analysis of the deposited data

How the results depend on the processing

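Among the 37 interleukin genes, *Il7r*, *Il21r*, *Il10ra*, *Il2rb* and *Il6st* stayed past the threshold in all 5 alternatives that kept the 4 libraries and the threshold (block, quantile normalization, scaled columns, robust prior, identical values once). With the replicate block, 684 genes and 6 interleukin genes were called, 5 of these shared with the fit without it, with 1 lower, 0 ligands and 0 antagonists, since *Il1rn* (adjusted p = 0.0548) and *Il33* (adjusted p = 0.0598) no longer passed in limma and *Il18rap* did (adjusted p = 0.0412). The pairing is not given by the labels, and same-numbered libraries did not deviate together (correlation of deviations over genes -0.09, 2 pairs). The robust prior gave 861 genes, 1 lower interleukin gene and 0 ligands. Quantile normalization gave 1061 genes and 9 interleukin genes, scaled columns 1128 and 9, and identical values once 945 and 8, each with all 7 of the original calls.

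At an adjusted p under 0.1, limma called 2317 genes and 17 interleukin genes, 13 higher and 4 lower, of which 5 were ligands and 11 receptor chains, and 27 genes of the lists against 12. A minimum difference of 1 unit left 591 genes, 0 lower interleukin genes and 0 ligands.

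Leaving out 1 library gave 0 to 1790 called genes, 0 to 15 interleukin genes (higher 0 to 13, lower 0 to 2), 0 to 5 ligands, 0 to 7 receptor chains, 0 to 3 antagonists and 0 to 32 genes of the lists in limma, and median differences of 0.33 to 0.69 for ligands, 0.23 to 0.47 for receptors and 0.73 to 1.84 for antagonists. All genes fell to 0 without sham replicate 1, with 1960 at an unadjusted p under 0.05, to 1 without sham replicate 2 and to 284 without injury replicate 1, and rose to 1790 without injury replicate 2. The cause was not tested.

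No called gene changed direction. *Il13ra1* turned to -0.0439 after quantile normalization and -0.0554 with scaled columns. Leaving out 1 library, 7 differences crossed 0: *Il13ra1* ran from -0.354 (without injury replicate 1; -0.06 without sham replicate 1) to 0.357, *Il4ra* from -0.135 (without injury replicate 1; -0.02 without sham replicate 1) to 0.519, *Il6ra* from -0.0102 (without sham replicate 1) to 0.268, *Il1r1* from -0.497 to 0.0312 and *Il20rb* from -0.593 to 0.0517 (both without sham replicate 2), and *Il11ra1* from -0.206 to 0.398 and *Il17d* from -0.257 to 0.507 (both reversed without injury replicate 2). Of 407 recomputed gene values 348 kept direction and call, 24 lost a call, 24 gained one and 11 reversed. Depth is unknown, so no value could be weighed by it.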
